A study of Mus musculus with 26 samples.

Results

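The genes described are the sensors and transcription factors of the unfolded protein response (UPR) in the mouse choroid plexus (ChP), the secretory epithelium that makes cerebrospinal fluid. The 10 genes were taken by symbol, as a list of known roles: Xbp1 and Ern1, Atf6 and Atf6b, Eif2ak3, Creb3, Creb3l1 and Creb3l2, and the proteases Mbtps1 and Mbtps2. All 10 of them were found among the 55416 genes of the count tables, and all 10 were among the 13697 genes that passed the filter on low counts, a mean of at least 1 CPM, the count scaled to a library of 1000000, in each of the main groups. The main groups were adult male C57Bl6J mice that had either a sham operation (Ctrl, 12 mice) or an electrolytic lesion of the suprachiasmatic nucleus, the central pacemaker (SCNx, 12 mice). They were killed every 4 h in constant darkness, 1 mouse of each group per time, from circadian time (CT) 0 to CT44, and the ChP of the 4th ventricle was taken. The KO animals were adult male FoxJ1-ERT2-Cre+/-; Bmal1fl/fl mice fed tamoxifen and kept in a light-dark cycle, with 1 mouse at zeitgeber time (ZT) 7 and 1 at ZT18. FoxJ1 drives the Cre in epithelial cells with motile cilia, those of the ChP among them, and tamoxifen-fed mice without the deletion were not analysed here.

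The endoplasmic reticulum (ER) folds secreted and membrane proteins, and a shortage of folding capacity is sensed by 3 membrane proteins. IRE1, the product of Ern1, removes a short segment from the Xbp1 mRNA, after which the ribosome reads another frame and makes the active transcription factor XBP1. ATF6 and its relative ATF6B travel to the Golgi, where the site-1 protease (Mbtps1) and the site-2 protease (Mbtps2) release their transcription factor domain. PERK, the product of Eif2ak3, phosphorylates the initiation factor eIF2 and lowers protein synthesis. CREB3, CREB3L1 and CREB3L2 are membrane-bound relatives of ATF6 that are released by the same proteases and serve secretory capacity. Much of this control acts on the proteins or by splicing, which counts of reads per gene do not measure.

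The segment that IRE1 cuts out is shown because it decides what the Xbp1 counts can say. In the transcript Xbp1-201 of the GENCODE annotation on GRCm38, a search for the IRE1 recognition letters CNGCAGC, where N is any base, gave 1 pair of sites that lie 26 bases apart. The segment lay within the coding part of exon 4 of 5, at chr11:5524282-5524307 on the plus strand. The line below gives chr11:5524258-5524331, with the removed segment in capitals.
Xbp1 mRNA around the IRE1 sites: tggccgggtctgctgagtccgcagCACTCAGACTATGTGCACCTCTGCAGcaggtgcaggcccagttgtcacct
The 26 bases are not a multiple of 3, so that their removal shifts the reading frame. Reads with and without the segment are summed in a count per gene, and the share of spliced Xbp1 was not measured here.

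Promoters were compared because Xbp1 followed genes that carry a known ER stress element. Of the 10 genes, 8 had an entry in the RefSeq promoter table of GRCm38.p6 (250 bases before to 50 bases after each start), with Atf6 and Creb3l1 unmatched. The element searched on both strands, ERSE, reads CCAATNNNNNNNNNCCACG, and it stood in 0.119% of all 32851 promoters. None of the 8 members held it. It stood in 6 of the 9 matched promoters of a list of known ATF6 targets and in 1 of the 11 matched promoters of a list of known XBP1 targets, some of which are known as targets through this element. Hspa5 (BiP, the main ER chaperone), Calr (calreticulin), Creld2 (an ER stress-induced disulfide isomerase) and Pdia6 (a protein disulfide isomerase) are shown, with the outer letters of the element in capitals.
Hspa5, chr2:34772017-34772051, plus strand: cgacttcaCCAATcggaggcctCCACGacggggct
Calr, chr8:84847067-84847101, plus strand: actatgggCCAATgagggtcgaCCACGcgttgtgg
Creld2, chr15:88819512-88819546, minus strand: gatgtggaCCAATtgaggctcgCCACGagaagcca
Pdia6, chr12:17266483-17266517, plus strand: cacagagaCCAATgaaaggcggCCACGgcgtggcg
The Xbp1 window before the start is printed because Xbp1 was the member with a rhythm. Its capitals mark the letters ACGT, the core that the UPR element TGACGTGG and the cAMP response element TGACGTCA contain.
Xbp1 promoter, chr11:5520391-5520640, plus strand: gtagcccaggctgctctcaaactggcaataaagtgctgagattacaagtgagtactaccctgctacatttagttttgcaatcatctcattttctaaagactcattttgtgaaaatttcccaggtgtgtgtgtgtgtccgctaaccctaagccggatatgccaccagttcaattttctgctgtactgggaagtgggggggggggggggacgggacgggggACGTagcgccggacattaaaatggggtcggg
The ACGT core stood in 4 of the 8 members (Xbp1, Atf6b, Creb3 and Creb3l2), against 30.9% of all promoters. The UPR element stood in 0 of the 8 members and 0.676% of all promoters, and the cAMP response element in 0 of the 8 and 1.79%. The E-box CACGTG, the letters bound by BMAL1 and CLOCK, stood in 1 of the 8 members, Atf6b, and in 7.15% of all promoters. The searched windows hold only 250 bases before and 50 bases after the start, and a missing match says nothing about a factor.

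The libraries held 38751201 to 47335258 estimated counts in Ctrl, 41807043 to 49527655 in SCNx, and 17425207 and 18059227 in KO. The summed level of 10 epithelial markers, Ttr and Enpp2 among them, was 142016 to 165774 CPM in Ctrl and 104991 to 166398 CPM in SCNx, so the labelled tissue was present throughout. Some libraries held transcripts of other tissues. The summed level of 8 hepatocyte markers was 2374 CPM in Ctrl at CT16 and 10891 CPM in SCNx at CT0, against medians of 0.733 and 2.69 CPM. The summed level of 8 neuronal markers was 232 CPM in Ctrl at CT4 and 287 CPM in SCNx at CT32, against medians of 15.5 and 14.2 CPM. In SCNx at CT44 the summed level of 3 blood markers was 4942 CPM, against a median of 396 CPM, and in SCNx at CT0 that of 3 ependymal markers was 49.8 CPM, against 10.8 CPM. In bulk tissue, fewer cells of a type and less RNA per cell cannot be told apart.

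To rank the members against each other, their mean level was divided by the exon length of the gene in the GENCODE annotation on GRCm38. On this scale of CPM per kilobase (kb), Xbp1 stood first in Ctrl with 45.9 ± 14.04 (SD, n = 12), and its lowest library, at 27.9, lay above the highest library of every other member, at 22.2. Creb3 (19.6 ± 1.25) and Creb3l1 (18.0 ± 1.91) followed, and their ranges overlapped. Atf6b (14.5 ± 0.821), Mbtps1 (13.2 ± 0.673), Creb3l2 (11.7 ± 1.06) and Atf6 (11.4 ± 0.719) formed the middle, each overlapping the next. A gap parted Atf6, with a lowest library of 10.3, from Mbtps2, with a highest of 5.95. The sensors Eif2ak3 (4.87 ± 0.163) and Ern1 (4.75 ± 0.222) were lowest, below the protease gene Mbtps2 (5.41 ± 0.404), and did not differ beyond their spread. The order was the same in SCNx. A union of exons overstates the length where long exons are little used, so neighbours in this order are not separated by length alone.

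The first comparison asked which members cycled over 24 h in Ctrl. Xbp1 did, and it was the only one of the 10 to pass the test. Its level ran from 90.6 CPM (CT8) over a median of 134 to 212 CPM (CT44). The days differed most at their start, with 141 CPM at CT0 and 179.7 CPM at CT24. At the other times the values were 126 and 113 CPM at CT4 and CT28, 90.6 and 92.4 at CT8 and CT32, 114 and 124 at CT12 and CT36, 199.7 and 189.8 at CT16 and CT40, and 207 and 212 at CT20 and CT44. Xbp1 was thus low in the late subjective day and high through the subjective night, with the step between CT12 and CT16 on the first day and between CT36 and CT40 on the second. The fitted amplitude was 0.59 ± 0.052 (SE) on the log2 scale, a 2.27-fold difference between peak and trough, with the peak at 19.5 ± 0.336 h (SE) after CT0 (edgeR quasi-likelihood test, Benjamini-Hochberg adjusted p = 2.44e-06). The SEs of amplitudes and peaks, here and below, came from a separate least-squares fit of log2 CPM within each group. They are not the spread behind the edgeR p-values. In the edgeR test 10.7% of all genes passed, and Xbp1 ranked at place 15 of 13697 by p-value and at the 95.6th percentile by amplitude. Without Ctrl CT16 and SCNx CT0, the libraries with hepatocyte transcripts, the amplitude was 0.58 (edgeR, adjusted p = 1.31e-05). At CT40, where the hepatocyte markers summed to 30.6 CPM, Xbp1 stood at 189.8 CPM.

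**Figure D1:**
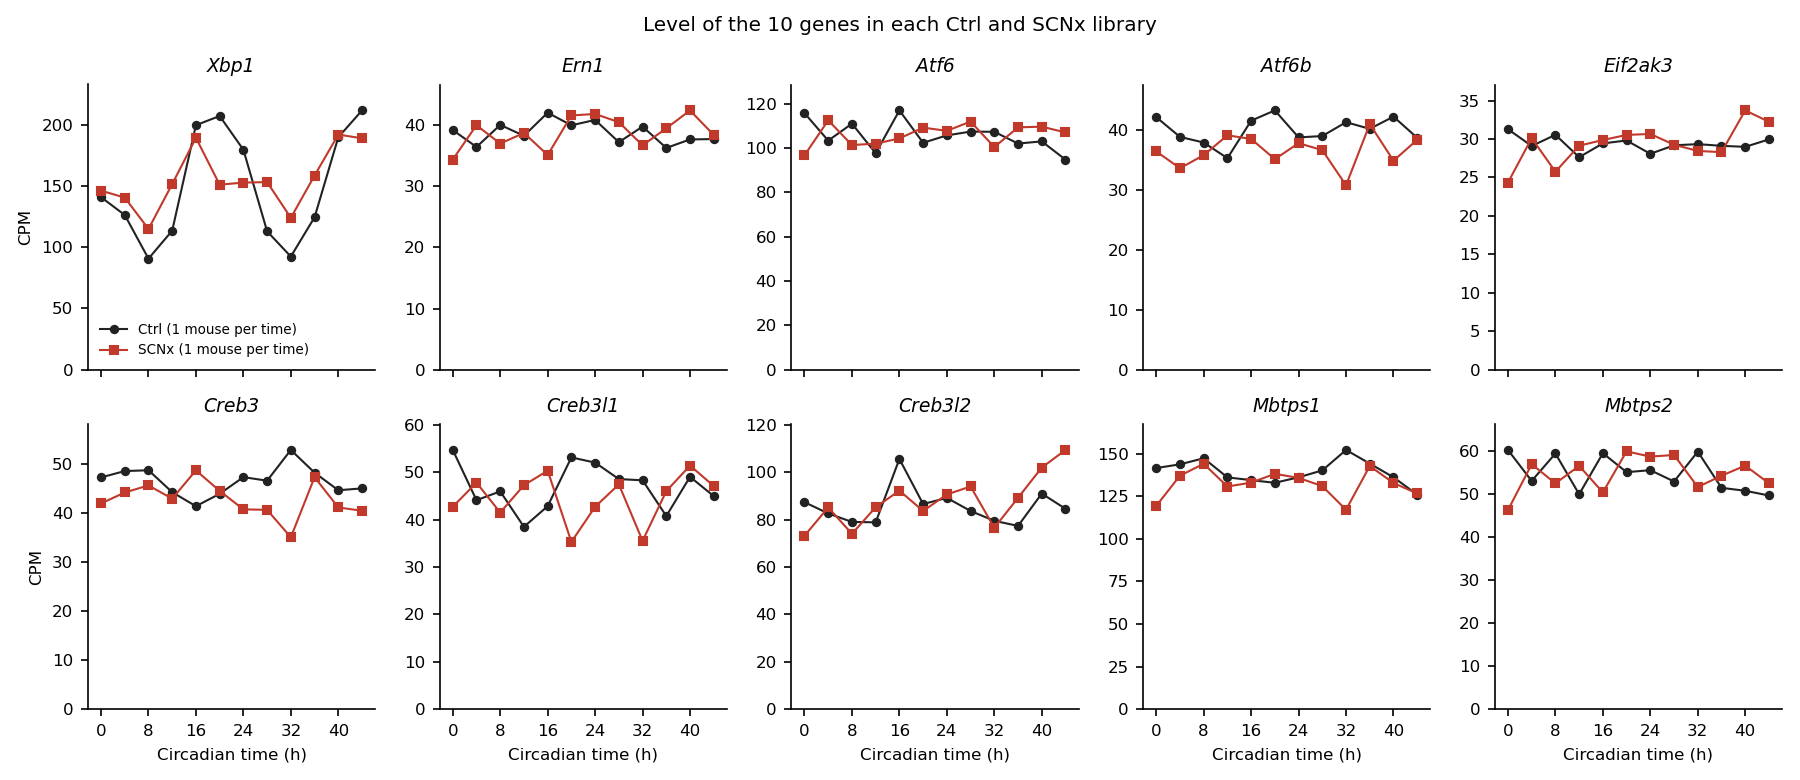
Level in CPM (y axis, from 0) of each of the 10 genes by circadian time in hours (x axis), with 1 Ctrl mouse (black circles) and 1 SCNx mouse (red squares) per time. Xbp1 ran from 90.6 to 212 CPM in Ctrl and from 115 to 192 CPM in SCNx, while the other members stayed within a 1.42-fold range in Ctrl and a 1.5-fold range in SCNx.

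The sensors themselves stayed nearly level. Ern1, which encodes IRE1, ran from 36.3 over a median of 38.8 to 42.1 CPM in Ctrl, with an amplitude of 0.023 ± 0.029 (SE) on the log2 scale. Eif2ak3, the PERK gene, ran from 27.6 over 29.3 to 31.3 CPM, with an amplitude of 0.020 ± 0.021. Atf6 ran from 94.8 over 105 to 117 CPM with an amplitude of 0.027 ± 0.040, and Atf6b from 35.3 over 39.6 to 43.2 CPM with an amplitude of 0.051 ± 0.033. The adjusted p-values of these 4 genes were 0.668 to 0.934 in edgeR, and their amplitudes lay at the 3.46th to 18.5th percentile of all genes. In simulated data of this design the test recovered 0% of rhythms with an amplitude of 0.1, 48% at 0.3 and 83.5% at 0.6. The changed genes were drawn from all tested genes, so these shares are not a detection limit for these 4 genes. A small rhythm in them may have been missed.

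The proteases and the CREB3 group moved a little, and none of them passed the test. Mbtps1, the site-1 protease gene, ran from 126 over a median of 138 to 152 CPM, with a fitted peak at 7.28 ± 0.758 h and an amplitude of 0.086 ± 0.017 (edgeR, p = 0.0368, adjusted p = 0.167). Creb3 ran from 41.3 over 46.8 to 52.8 CPM, with a peak at 5.88 ± 0.998 h and an amplitude of 0.098 ± 0.025 (adjusted p = 0.258). Both were lower at night: the 4 night libraries (CT16, CT20, CT40 and CT44) lay below the 4 day libraries (CT4, CT8, CT28 and CT32), at 126 to 136 against 140 to 152 CPM for Mbtps1 and at 41.3 to 44.9 against 46.5 to 52.8 CPM for Creb3. Over all tested genes, 6.37% showed this separation. Creb3l2, with a peak at 19.3 ± 1.53 h and an amplitude of 0.11 ± 0.043 (adjusted p = 0.368), was separated in the other sense, at 84.6 to 106 CPM at night against 79.0 to 83.7 CPM by day, as was Xbp1, at 189.8 to 212 against 90.6 to 126 CPM. That separation was seen in 6.44% of all genes. The highest Creb3l2 value was that of CT16, the library with hepatocyte transcripts. Creb3l1 ran from 38.5 over 47.1 to 54.7 CPM with a peak at 23.7 ± 1.16 h and an amplitude of 0.15 ± 0.047 (adjusted p = 0.217). Mbtps2, the site-2 protease gene, ran from 49.6 over 54.0 to 60.1 CPM with an amplitude of 0.045 ± 0.046 (adjusted p = 0.797). A rank test for 24 h curves, with a permutation p adjusted over all genes, gave 0.00856 for Xbp1 and 0.0293 for Mbtps1, and at least 0.1002 (Creb3) for the other 8. At an adjusted p under 0.05 this rank test called 1025 of all 13697 genes in Ctrl.

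The second comparison asked whether the rhythms outlasted the lesion. In SCNx, edgeR passed 0 members and 0% of all genes at an adjusted p under 0.05. Xbp1 kept the largest amplitude of the members, 0.25 ± 0.059, with a peak at 18.1 ± 0.898 h (edgeR, p = 0.000542, adjusted p = 0.137). This amplitude lay at the 83.9th percentile of all genes in SCNx. No tested gene had a lower adjusted p there, but the adjustment can give the same value to many genes, so Xbp1 is not thereby ranked first. Xbp1 was the only member with an unadjusted p under 0.05, which 14.8% of all genes reached. Its levels ran from 115 CPM (CT8) over a median of 152 to 192 CPM (CT40), and the low points were again at CT8 and CT32, at 115 and 124 CPM. The night libraries, at 151 to 192 CPM, overlapped the day libraries, at 115 to 153 CPM, through CT20 alone, the other 3 lying at 189 to 192 CPM. Without SCNx CT44, the library with blood transcripts, the SCNx amplitude of Xbp1 was 0.24 (edgeR, adjusted p = 0.151). No member was separated between night and day in SCNx, as 4.04% of all genes were. DESeq2 did call Xbp1 rhythmic in SCNx (adjusted p = 0.014), 1 of 432 genes in all, and limma did not (adjusted p = 0.377, 0 genes in all).

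The difference between the rhythms was tested directly. The Xbp1 curve differed between Ctrl and SCNx (edgeR, adjusted p = 0.0316), the only member for which this held, where 2.12% of all genes passed. The call rested on single libraries. It was lost without Ctrl CT8 (adjusted p = 0.0722), Ctrl CT32 (0.0622), Ctrl CT44 (0.0578), SCNx CT0 (0.0531), SCNx CT20 (0.0615) or SCNx CT36 (0.0502), and without both Ctrl CT16 and SCNx CT0 (0.0674). The other members had adjusted p-values of 0.338 (Creb3) to 0.992 (Ern1).

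The other genes of the pathway were counted by lists of known roles. The lists were chosen with earlier results of these data known, so their counts are a description and no test of a branch. Each gene was placed in a single list, and the lists do not part the output of ATF6 from that of XBP1. Pdia6 of the XBP1 list held the ERSE, as did 6 of the listed ATF6 targets. All 11 listed ATF6 targets were rhythmic in Ctrl, with peaks between 17.1 and 21.6 h, where 10.7% of all tested genes were rhythmic. The 4 with the smallest p-values were Calr, with an amplitude of 0.60 ± 0.077 and a peak at 21.6 h (adjusted p = 1.54e-05), Hsp90b1 (the ER chaperone GRP94) with 0.50 ± 0.063 and 21.5 h (3e-05), Creld2 with 0.90 ± 0.101 and 19.5 h (3.94e-05), and Herpud1 (a component of ER-associated degradation) with 0.57 ± 0.042 and 17.1 h (3.99e-05), all from edgeR. Hspa5 peaked at 20.5 ± 0.567 h with an amplitude of 0.74 ± 0.110 (adjusted p = 0.000392). Of the 12 listed XBP1 targets, 6 were rhythmic, with peaks between 18.8 and 21.2 h: Pdia6 (0.52 ± 0.066, adjusted p = 8.89e-06), Sdf2l1 (an ER chaperone cofactor, 0.89 ± 0.120, 1.52e-05), Dnajb11 (a BiP cochaperone, 0.47 ± 0.053, 3.34e-05), Serp1 (a protein of the translocon, 0.33 ± 0.048, 6.32e-05), Edem1 and Srprb. The median amplitude was 0.60 over the ATF6 targets and 0.20 over the XBP1 targets, against 0.068 over the members and 0.11 over all tested genes. A peak between 16 and 24 h was found in 624 of the 1459 genes rhythmic in Ctrl, which is 42.8%.

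The other lists held 1 rhythmic gene or none each, where 10.7% of all tested genes were rhythmic. Of the PERK branch, 1 of the 11 tested genes was called, Dnajc3 (an ER cochaperone that inhibits PERK), with an amplitude of 0.25 ± 0.044 and a peak at 21.0 h (edgeR, adjusted p = 0.00141). Without Ctrl CT4 and SCNx CT32 the count was 2. Atf4 and Ddit3, the transcription factors downstream of PERK, had adjusted p-values of 0.136 and 0.118. Among 7 tested IRE1 partners, Traf2 (an adaptor that IRE1 recruits) was called (0.24 ± 0.032, adjusted p = 0.0179). Among 4 tested CREB relatives, Crem (a nuclear cAMP-responsive factor) was called (0.51 ± 0.059, adjusted p = 2.72e-05). Of 6 other clients of the site proteases and their partners, such as the sterol factors Srebf1 and Srebf2 with their escort Scap, 0 were called, and their adjusted p-values in edgeR were 0.172 to 0.994. Rhythms that differed between Ctrl and SCNx were found in 3 XBP1 targets (Pdia6, Sdf2l1 and Dnajb11), 2 ATF6 targets (Calr and Hsp90b1) and Crem, and in no gene of the other lists, against 2.12% of all tested genes.

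**Figure D2:**
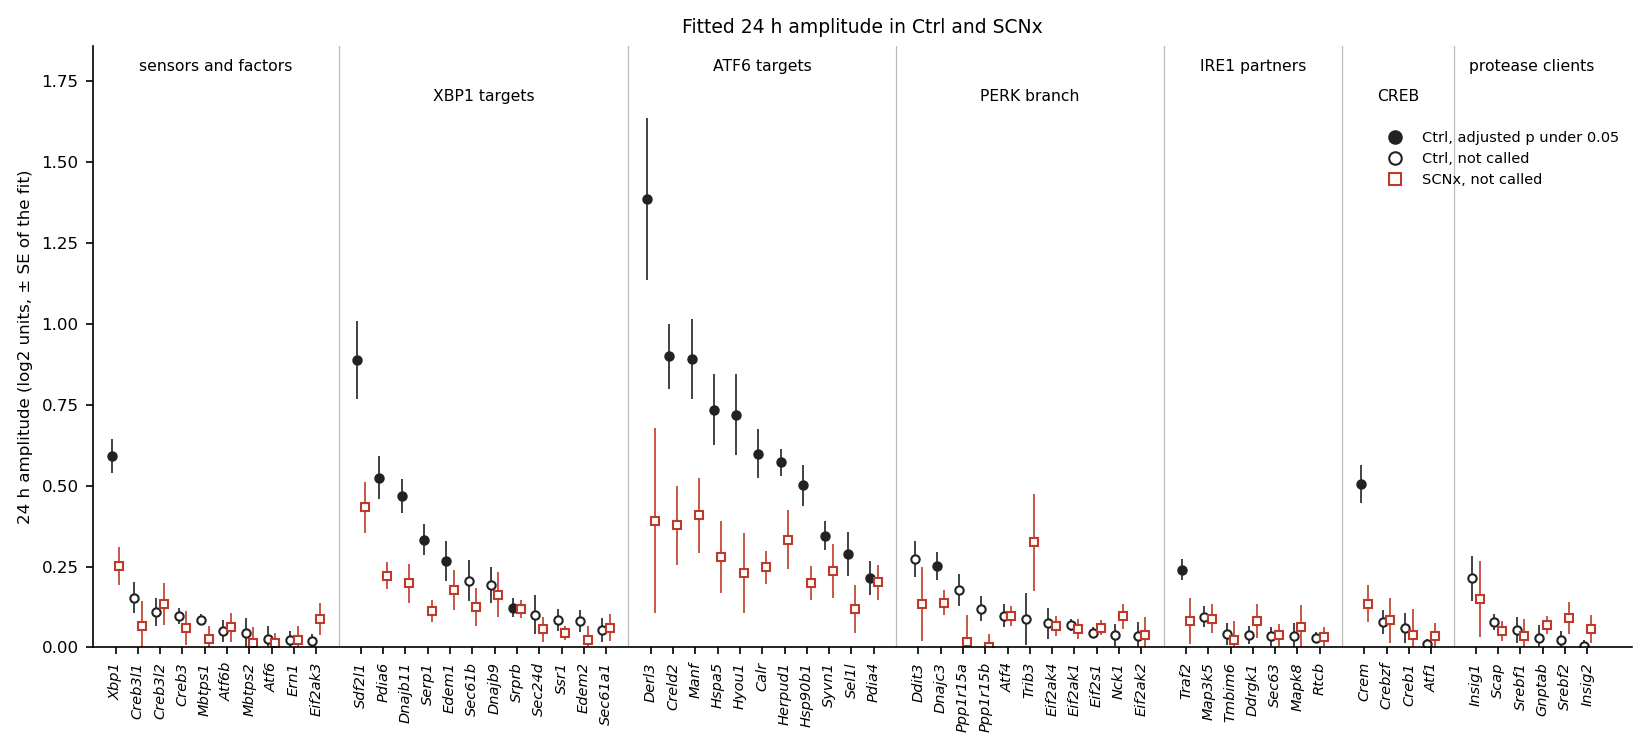
Fitted 24 h amplitude in log2 units (y axis, from 0) of the 10 members and the tested genes of the 6 pathway lists (x axis), with black circles for Ctrl and red squares for SCNx. Bars show the SE of the least-squares fit within the group, not of the edgeR fit. Filled circles mark an adjusted p under 0.05, reached in Ctrl by Xbp1 alone among the members and by all 11 ATF6 targets.

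The third comparison asked whether known UPR targets followed Xbp1 from mouse to mouse. Sdf2l1 and Dnajb9 came from the list of XBP1 targets, and Hspa5 from that of ATF6 targets. In Ctrl, the log2 level of Hspa5 rose with that of Xbp1 (Pearson r = 0.902, permutation p = 0.00022, adjusted over 6 relations 0.000405, Spearman rho = 0.895, p = 0.00027, adjusted 0.00068, n = 12), as did Sdf2l1 (r = 0.879, p = 0.00027, adjusted 0.000405, rho = 0.867, p = 0.00055, adjusted 0.000825). Dnajb9, which encodes the BiP cochaperone ERdj4, did not pass (r = 0.477, p = 0.120, adjusted 0.120, rho = 0.392, p = 0.212, adjusted 0.212). In SCNx the permutation test gave r = 0.912 for Hspa5 (p = 6e-05, adjusted 0.00018, rho = 0.881, p = 0.00034, adjusted 0.00068), 0.942 for Sdf2l1 (p = 2e-05, adjusted 0.00012, rho = 0.888, p = 0.00028, adjusted 0.00068) and 0.718 for Dnajb9 (p = 0.00874, adjusted 0.0105, rho = 0.734, p = 0.00867, adjusted 0.0104). Without the 2 libraries farthest from the median Xbp1 level, r was 0.869, 0.813 and 0.509 in Ctrl and 0.869, 0.923 and 0.737 in SCNx. Without Ctrl CT16 and SCNx CT0 it was 0.890, 0.894 and 0.364 in Ctrl and 0.914, 0.942 and 0.820 in SCNx, and without Ctrl CT4 and SCNx CT32 it was 0.902, 0.879 and 0.466 in Ctrl and 0.951, 0.945 and 0.710 in SCNx. The mice of a group differ in time of death, so that a shared time course gives such a correlation. On the residuals of each group's 24 h curve, r in Ctrl was 0.555 for Hspa5 (permutation p = 0.0610, adjusted 0.122, rho = 0.629, p = 0.0325, adjusted 0.0487), 0.521 for Sdf2l1 (p = 0.0862, adjusted 0.125, rho = 0.252, p = 0.430, adjusted 0.430) and 0.293 for Dnajb9 (p = 0.358, adjusted 0.358, rho = 0.490, p = 0.109, adjusted 0.131). In SCNx the residual r was 0.875 for Hspa5 (p = 0.00041, adjusted 0.00123, rho = 0.825, p = 0.00167, adjusted 0.00501), 0.891 for Sdf2l1 (p = 0.00011, adjusted 0.00066, rho = 0.860, p = 0.00065, adjusted 0.0039) and 0.492 for Dnajb9 (p = 0.104, adjusted 0.125, rho = 0.650, p = 0.0268, adjusted 0.0487), all by permutation. The residuals lack only a 24 h curve in time of death common to the group. A rhythm whose timing differs from mouse to mouse would stay in them, and its part in these values was not tested. Whether the groups differ in this relation was not tested.

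**Figure D3:**
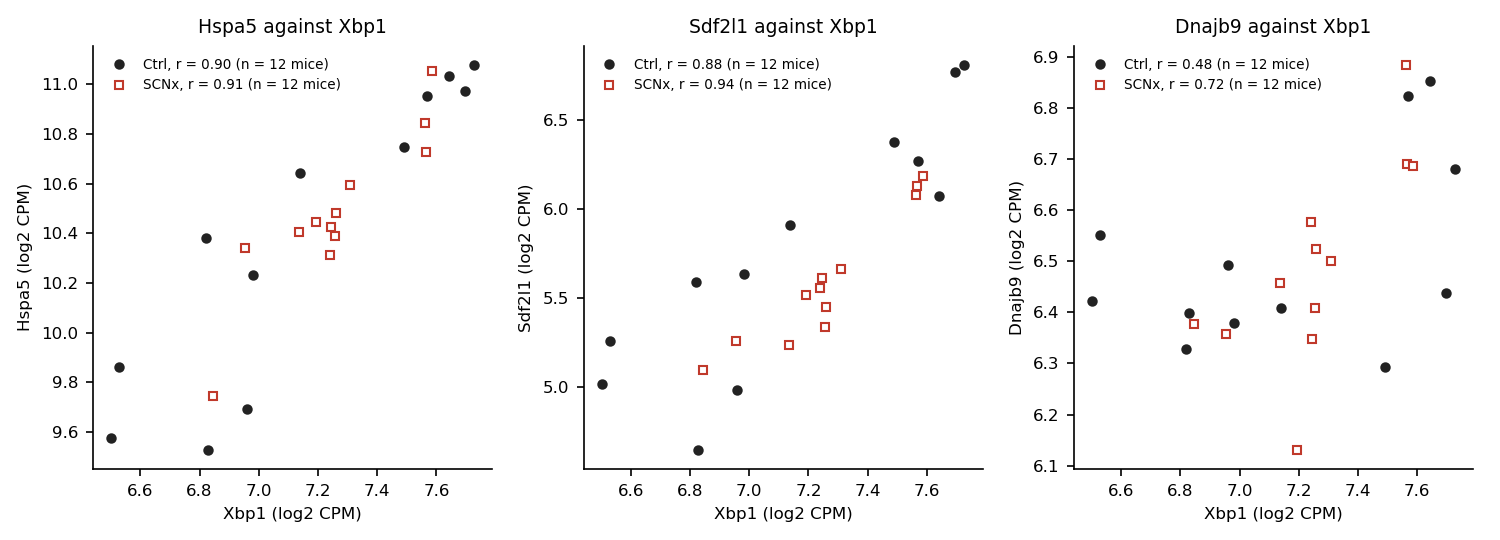
Log2 CPM of Hspa5, Sdf2l1 and Dnajb9 (y axes) against log2 CPM of Xbp1 (x axes), with 1 point per mouse, black circles for the 12 Ctrl and open red squares for the 12 SCNx mice. Pearson r was 0.902, 0.879 and 0.477 in Ctrl and 0.912, 0.942 and 0.718 in SCNx.

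The genes whose pattern was most like that of Xbp1 were listed as a description, by Pearson r of log2 CPM over 12 libraries and 13696 genes. In Ctrl they included Mlec (malectin, an ER lectin; 0.986), Creld2 (0.977), Tdrkh (0.964) and Creld1 (0.955). In SCNx they were Sdf2l1 (0.942), Eif1a (0.939), Manf (an ER-resident secreted factor; 0.936), Tmem41b (0.930) and Pdia6 (0.927). The points of a set share time of day and library.

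The fourth comparison asked whether the lesion changed the members' level, with all times pooled. By edgeR no member differed at an adjusted p under 0.05, nor did any of the 13697 genes (0%), with DESeq2 calling 7 genes and limma 0, none of them a member. At an unadjusted p under 0.05 in edgeR, 3 members were lower in SCNx and 0 were higher. Of all 13697 genes, 628 (4.58%) were lower and 655 were higher. Atf6b ran from 30.7 over a median of 36.5 to 41.0 CPM in SCNx against 35.3, 39.6 and 43.2 CPM in Ctrl, and it was lower at 10 of the 12 times. Its log2 difference was -0.13 ± 0.040 (SE; edgeR, p = 0.00358, adjusted p = 0.377). Creb3 ran from 35.0 over 42.4 to 48.6 CPM in SCNx against 41.3, 46.8 and 52.8 CPM in Ctrl and was lower at 10 of the 12 times, with a difference of -0.12 ± 0.044 (p = 0.0106, adjusted p = 0.438). Mbtps1 ran from 117 over 133 to 144 CPM in SCNx against 126, 138 and 152 CPM in Ctrl and was lower at 10 of the 12 times, with a difference of -0.072 ± 0.033 (p = 0.0409, adjusted p = 0.501). The ranges of the groups overlapped for all 3 genes.

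In all 3 genes the lowest SCNx value was that of CT32, the library with neuronal transcripts. Without Ctrl CT4 and SCNx CT32 the differences were -0.12 ± 0.038 for Atf6b, -0.096 ± 0.040 for Creb3 and -0.057 ± 0.031 for Mbtps1 (edgeR, adjusted p = 0.351, 0.497 and 0.650). The other 7 members had log2 differences of -0.072 (Creb3l1) to 0.059 (Xbp1), with unadjusted p-values of 0.278 to 0.984. Without Ctrl CT16 and SCNx CT0, Xbp1 stood at 0.11 ± 0.144 and Creb3l2 at 0.095 ± 0.053 in place of 0.042 ± 0.060, still without a call (edgeR, adjusted p = 0.793 and 0.498). The interval of Xbp1, -0.21 to 0.33, was the widest, its time course being pooled, and those of Ern1 (-0.066 to 0.072), Atf6 (-0.057 to 0.070) and Eif2ak3 (-0.078 to 0.080) were narrow. The lowest SCNx values of Ern1, Atf6, Eif2ak3, Creb3l2 and Mbtps2 were those of CT0, the library with hepatocyte transcripts. Among the protease clients, Srebf2 (-0.12, p = 0.0102), Scap (-0.087, p = 0.0120) and Srebf1 (-0.11, p = 0.0190) were lower in SCNx at an unadjusted p under 0.05 in edgeR, and none passed the adjustment.

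**Figure D4:**
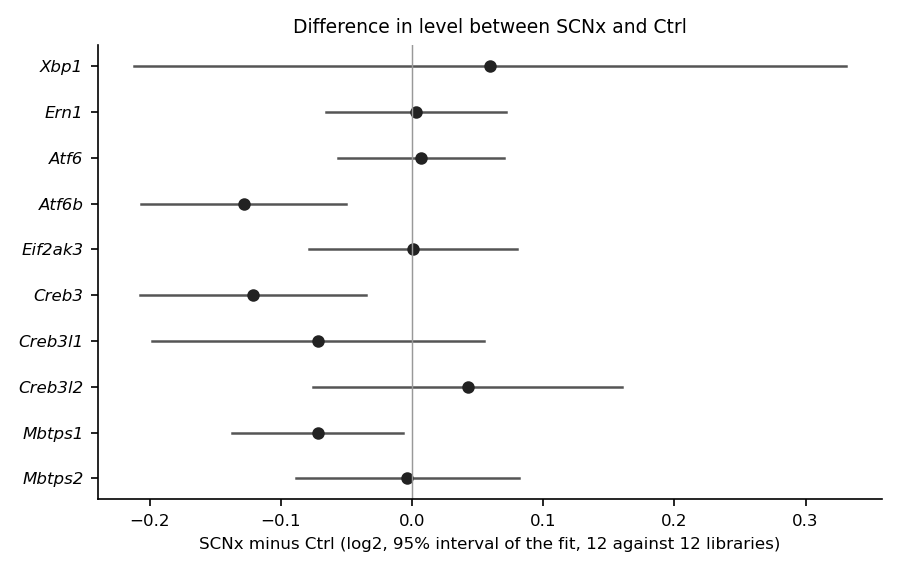
Log2 difference in level, SCNx minus Ctrl (x axis), of the 10 genes (y axis), with points for the estimate over 12 against 12 libraries and bars for its 95% interval. The intervals of Atf6b, Creb3 and Mbtps1 lie below 0, and no difference passed the adjustment over all genes.

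The fifth comparison set the KO night library against the KO day library, beside a night and day contrast in Ctrl and SCNx. The contrasts are not matched in hours or lighting. KO was ZT18 over ZT7 in a light-dark cycle. Ctrl and SCNx, in constant darkness, were means of CT16, CT20, CT40 and CT44 over CT4, CT8, CT28 and CT32. With 1 library per time there was no test, the intervals cover counting error only, and another library kit and laser-captured frozen tissue were used, so levels were not compared with Ctrl. The targeted gene Arntl (Bmal1) stood at 11.01 CPM at ZT7 and 8.97 CPM at ZT18, in counts that include exons outside the deleted part. Between ZT7 and ZT18 the summed epithelial markers went from 89944 to 78603 CPM, those of fibroblasts from 249.9 to 371 CPM, of oligodendrocytes from 320.0 to 428 CPM, of neurons from 205 to 307 CPM and of astrocytes from 780.3 to 816 CPM, and their part in the values was not tested. Xbp1 stood at 64.7 CPM at ZT7 and 63.1 CPM at ZT18, a log2 ratio of night over day of -0.036 (95% interval -0.16 to 0.085). The night mean of Xbp1 lay 0.95 above the day mean in Ctrl and 0.44 above it in SCNx on the log2 scale, with SDs of 0.069 (night) and 0.23 (day) in Ctrl and 0.17 and 0.18 in SCNx (n = 4 each). Hspa5 stood at 1073 and 812 CPM in KO, a log2 ratio of -0.40 (-0.43 to -0.37), where Ctrl had a night mean 0.996 above the day mean. Hspa5 does not stand for the target lists. Their median KO ratio was -0.088 for ATF6 targets and 0.040 for XBP1 targets, against 0.0034 over all tested genes.

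Among the members, 0 reached a log2 ratio of 0.5 or more in KO, as 9.53% of all genes did, and 1 reached -0.5 or less, as 8.56% did. That gene was Creb3, at 35.9 and 23.2 CPM, with a ratio of -0.63 (-0.81 to -0.45), against -0.17 in Ctrl and 0.082 in SCNx. Mbtps2 followed at 32.0 and 24.3 CPM (-0.40, interval -0.58 to -0.22). Creb3l1 was higher at night, at 28.0 and 36.6 CPM (0.38, interval 0.21 to 0.56), as was Creb3l2, at 66.4 and 80.2 CPM (0.27, interval 0.16 to 0.39). The other 5 members, Ern1, Atf6, Atf6b, Eif2ak3 and Mbtps1, had ratios of -0.11 to 0.094, and each of their intervals included 0. With library totals in place of TMM scaling, all KO ratios rose by 0.12, the median of all genes among them. The counts past the fold then changed from 1306 higher and 1172 lower genes to 2007 and 717, and Xbp1 stood at 0.086 and Creb3l1 at 0.51.

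**Figure D5:**
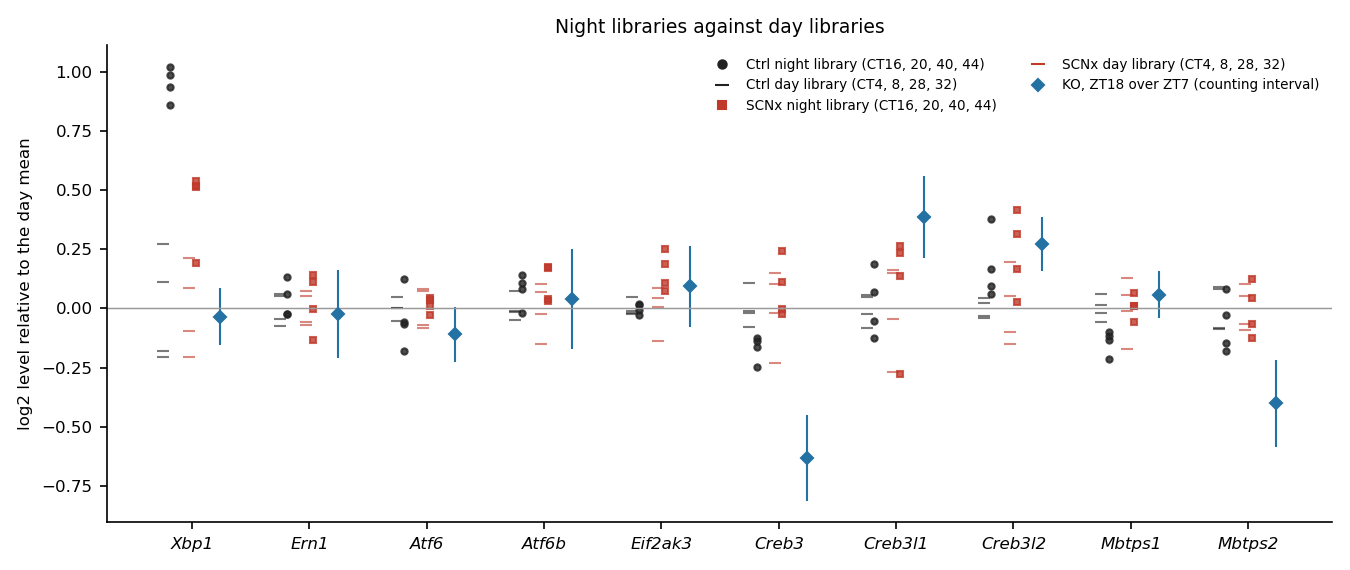
Log2 level relative to the day mean of the group (y axis) for the 10 genes (x axis), with circles and squares for the 4 night libraries, dashes for the 4 day libraries of Ctrl and SCNx, and a diamond for the ratio of the KO night to the KO day library with its 95% counting interval. For Xbp1 the Ctrl night libraries lie well above the day libraries, and the KO ratio is -0.036.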

How the data were processed

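RNA-seq was done on ChP of 12 Ctrl, 12 SCNx and 2 KO mice. The authors deposited estimated counts per gene, not normalized, which by the submitters' processing notes came from Salmon 1.9.0 within a pipeline that used cutadapt 3.4 and STAR. The genome was GRCm39, as given in the methods of the study. Estimated counts were rounded to whole numbers. CPM were computed with TMM factors from edgeR 4.0.16 in R 4.3.3. A gene entered the tests when both Ctrl and SCNx averaged 1 CPM or more. The quasi-likelihood F test of edgeR was applied to a single fit of 24 libraries, in which each group had its own mean and its own pair of 24 h cosine and sine terms. For the level, the group was the sole term. The p-values were adjusted by Benjamini-Hochberg over all 13697 genes, with a threshold of 0.05. An amplitude is that of the curve fitted by edgeR, from the midline to the peak, in log2 units. Its SE and that of the peak time came from a least-squares fit of log2 CPM within each group. Each time had 1 mouse per group, so that the spread between animals is estimated from the fit of the curve. The log2 values used a prior count of 1. Permutation tests drew 100000 permutations and were two-sided. KO ratios carry exact binomial 95% intervals, which cover counting error only.

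The algorithms that the study used for rhythms were not run, and a rank test against 12 cosine templates was an alternative. Other alternatives were DESeq2 1.42.0, limma 3.58.1, other filters and scaling, leaving out each library, leaving out libraries with transcripts of liver or brain, a linear trend, and circadian time as a block. The fits were checked on simulated data, in which 200 of 13697 genes were changed: a level difference of 0.2 was recovered for 28.5% and one of 0.5 for 83%. No gene had a rhythm in this level simulation, and its spread was estimated with the 24 h terms kept. The real level test pooled all times, so these shares can overstate its recovery. For Xbp1 the SE was 0.139 pooled and 0.054 with the 24 h terms kept. The members and the gene lists were chosen with earlier results of these data known. Named were all members, up to 4 rhythmic genes per list by smallest p, 3 targets for the correlations, the 5 genes most like Xbp1 in each group, of which 1 is not reported here, and Arntl. Edem1, Srprb, Atf4, Ddit3, the sterol factors and Scap were named outside this rule, after their values were seen, as was Hspa5 in KO. Ddit3 is the name of 2 identifiers, and the one with more counts was used. Chac1, Ern2, Creb3l3 and Creb3l4 fell below the filter. Genome annotation and promoters were of GRCm38, while the counts were made on GRCm39, and only sequences, exon lengths and the coordinates printed with the sequences came from GRCm38.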

Additional observations from a re-analysis of the deposited data

Results flagged for a closer look

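The Xbp1 rhythm drew attention because it differed between Ctrl and SCNx in a direct test (edgeR, adjusted p = 0.0316, amplitude 0.59 ± 0.052 in Ctrl and 0.25 ± 0.059 in SCNx on the log2 scale). Over the alternatives to the fit, each library left out in turn apart, the adjusted p ran from 0.00121 with DESeq2 to 0.0674 without both Ctrl CT16 and SCNx CT0.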

How the results depend on the processing

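The Ctrl rhythm of Xbp1 passed the threshold under all 9 alternative fits and without each of the 24 libraries in turn, with amplitudes of 0.58 to 0.62. The number of members rhythmic in Ctrl was 2 by the rank test, which added Mbtps1 and called 1025 of all 13697 genes, and 1 otherwise. The number rhythmic in SCNx was 1, Xbp1, with DESeq2 and with no filter on low counts, 0 otherwise and 0 to 0 with 1 library left out. The number whose rhythm differed was 0 without both Ctrl CT16 and SCNx CT0 and 0 to 1 with 1 library left out. No member differed in level at an adjusted p under 0.05 under any of 10 alternatives or without any 1 library. The study used 0.25 for this comparison, which 0 genes reached in the main fit. Atf6b was under 0.25 with DESeq2 (adjusted p = 0.222) and with the 24 h terms kept (edgeR, 0.248). With 1 library left out, the lowest adjusted p in edgeR was 0.205 for Atf6b and 0.248 for Creb3. The number of members at a KO ratio of 0.5 or more was 1, Creb3l1, without TMM. Residuals of the 24 h curve lowered r to 0.555 (Hspa5, Ctrl), 0.521 (Sdf2l1, Ctrl) and 0.492 (Dnajb9, SCNx), no longer past the threshold. In lists of pathway genes, an alternative chosen after seeing the data, the count changed by over 1.5 times only for the PERK branch, to 2 without Ctrl CT4 and SCNx CT32. Over all genes, 1459 were rhythmic in Ctrl, 2223 without Ctrl CT4 and SCNx CT32, and 918 (without Ctrl CT44) to 2249 (without SCNx CT32) with 1 library left out. In SCNx the 0 genes became 432 with DESeq2, 1384 with no filter and 6 without SCNx CT24. The 291 genes whose rhythm differed became 589 with DESeq2, 654 with no filter, 504 without Ctrl CT4 and SCNx CT32, and, with 1 library left out, between 163 for SCNx CT16 and 466 for SCNx CT32. In level, DESeq2 called 7 genes, and 3 were called without SCNx CT32. The cause of these changes was not tested.

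Level differences near 0 changed sign. Eif2ak3 (0.0008) was at -0.000197 with DESeq2 size factors, -0.000122 with DESeq2, -0.00344 with limma, -0.00263, -0.000317 and -0.0111 with minimum CPM of 0.5, of 5 and no filter, -0.000874 without Ctrl CT4 and SCNx CT32, and -0.000434 with the 24 h terms kept. Ern1 was at -0.000657 with a minimum CPM of 0.5, -0.00866 with no filter and -0.00228 without Ctrl CT4 and SCNx CT32. Atf6 was at -0.00498 with no filter, and Mbtps2 at 0.0273 without Ctrl CT16 and SCNx CT0. With 1 library left out the differences ran from -0.0088 to 0.0171 (Ern1), -0.0066 to 0.0214 (Atf6), -0.0186 to 0.0221 (Eif2ak3) and -0.0176 to 0.0154 (Mbtps2). Those of Xbp1 ran from 0.00894 (without Ctrl CT8) to 0.116 (without Ctrl CT44), of Creb3l2 from 0.0102 (without SCNx CT44) to 0.0742 (without Ctrl CT16) and of Creb3l1 from -0.0975 (without Ctrl CT12) to -0.0446 (without SCNx CT20), with no call in any. With circadian time as a replicate block, 0 members differed in level and Eif2ak3 was at -0.00316. The mice of a time share only that time: deviations of the 12 pairs correlated at -0.44 to 0.33, and 1 of 12 Ctrl mice correlated best with its own time. Depth was similar in Ctrl and SCNx and lower in KO, whose ratios rest on 346 to 1751 counts per library and member.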
